A study of Rattus norvegicus with 4 samples.

Results

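Serotonin synthesis, transport and reception were followed through 9 genes of the postnatal rat carotid body (CB), chosen by gene symbol from the 32883 genes of the table. They were the tryptophan hydroxylases Tph1 and Tph2, the serotonin transporter Slc6a4 and the receptor genes Htr1a, Htr1b, Htr2a, Htr2b, Htr3a and Htr5b. The question was how their mRNA levels differed between neonatal and adult CBs, in a study of how the organ matures. CBs came from Sprague Dawley rats for which no treatment is listed, 5 days (neonates) or 21 days (adults) old, and 2 libraries were sequenced per age. Per the labels each library pooled the CBs of 6 pups or of 3 older rats, so it averaged over animals, and the paper's data come from both sexes without a split by sex. The paper describes larger pools and more replicates per age than the labels do. The libraries are labelled as biological replicates. The design text has the older rats grow up from part of the same litters, without saying which pups and older rats were littermates.

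Serotonin is made from tryptophan by hydroxylation and then decarboxylation, stored in vesicles by monoamine transporters and taken back into cells by Slc6a4. Hydroxylation is the rate-limiting step, with Tph1 known as the peripheral isozyme and Tph2 as the neuronal one. Most receptors act through G proteins, while Htr3a forms an ion channel. In the CB, serotonin is known from glomus cells, the oxygen sensors of the organ, and acts on them and on the sensory nerve endings as a modulator.

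Estimated counts summed to between 36286191 and 39476110 per library, so 3 counts, taken as the floor of detection, stood for 0.0760 to 0.0827 CPM, the usual scaling of counts to library size. CPM are given on library size, and log2 fold changes, each with its standard error (SE), come from edgeR's quasi-likelihood test after TMM scaling, neonate over adult, so that a negative value means higher in adults. Adjusted p are Benjamini-Hochberg values of that test over the 13843 genes tested. TMM factors were 0.902 and 0.935 in neonates and 1.08 and 1.10 in adults. Without them the median over all genes tested moved from -0.0029 to -0.25. Called genes had an adjusted p below 0.05 and differed at least 2-fold, as 20.8% of all genes tested did, while 62.3% passed on p alone. For any single gene, an exact two-sided permutation test of 2 libraries against 2 could not go below p = 0.333. Intervals on single libraries are exact 95% Poisson intervals and cover counting error only. Levels were not compared between genes, since no transcript lengths were used. All 11 glomus cell markers were detected in every library, with Th, the first enzyme of dopamine synthesis, between 781 and 1517 CPM. In whole CBs, fewer cells of a type and less RNA per cell cannot be told apart. Parathyroid markers stood out in neonate replicate 1, summing to 1616 CPM there, 197 CPM in neonate replicate 2 and at most 0.0551 CPM in adults.

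Slc6a4, Htr1b and Htr2a were higher in adults. Htr2b and Htr3a did not pass the threshold, Tph1 had a log2 fold change near 0 that did not pass either, Tph2 was low and mostly neonatal, Htr1a was under the floor of detection and Htr5b had no counts. Of the 9 genes, 6 reached the minimum of 1 CPM in at least 2 libraries that testing required. By CPM on library size, both adult libraries lay above both neonatal ones for 5 of the 6, against 55.3% of all genes tested. None of the 6 had both neonatal libraries above, against 27.9%. After TMM scaling, Tph1 overlapped between ages and Htr3a had both neonatal libraries above, so these counts depend on the scaling. The shares of all genes are on library size too. No overlap in either direction was found for 83.1% of all genes, so it is common here. Called higher in adults were 3, against 13.2% of all genes tested. None was called higher in neonates by edgeR, DESeq2 or limma-voom, against 7.68% of all genes in edgeR, and 0 had an unadjusted p under 0.05 in that direction in edgeR. Htr1b passed the 1 CPM filter through the adult libraries alone, and Htr2b reached 1 CPM in only 1 neonatal library. Tph2, with both neonatal libraries above, missed the filter. Through these genes the filter bears on the counts by direction, which are therefore not neutral. Tph1, Slc6a4, Htr2a and Htr3a reached 1 CPM in every library.

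**Figure D1:**
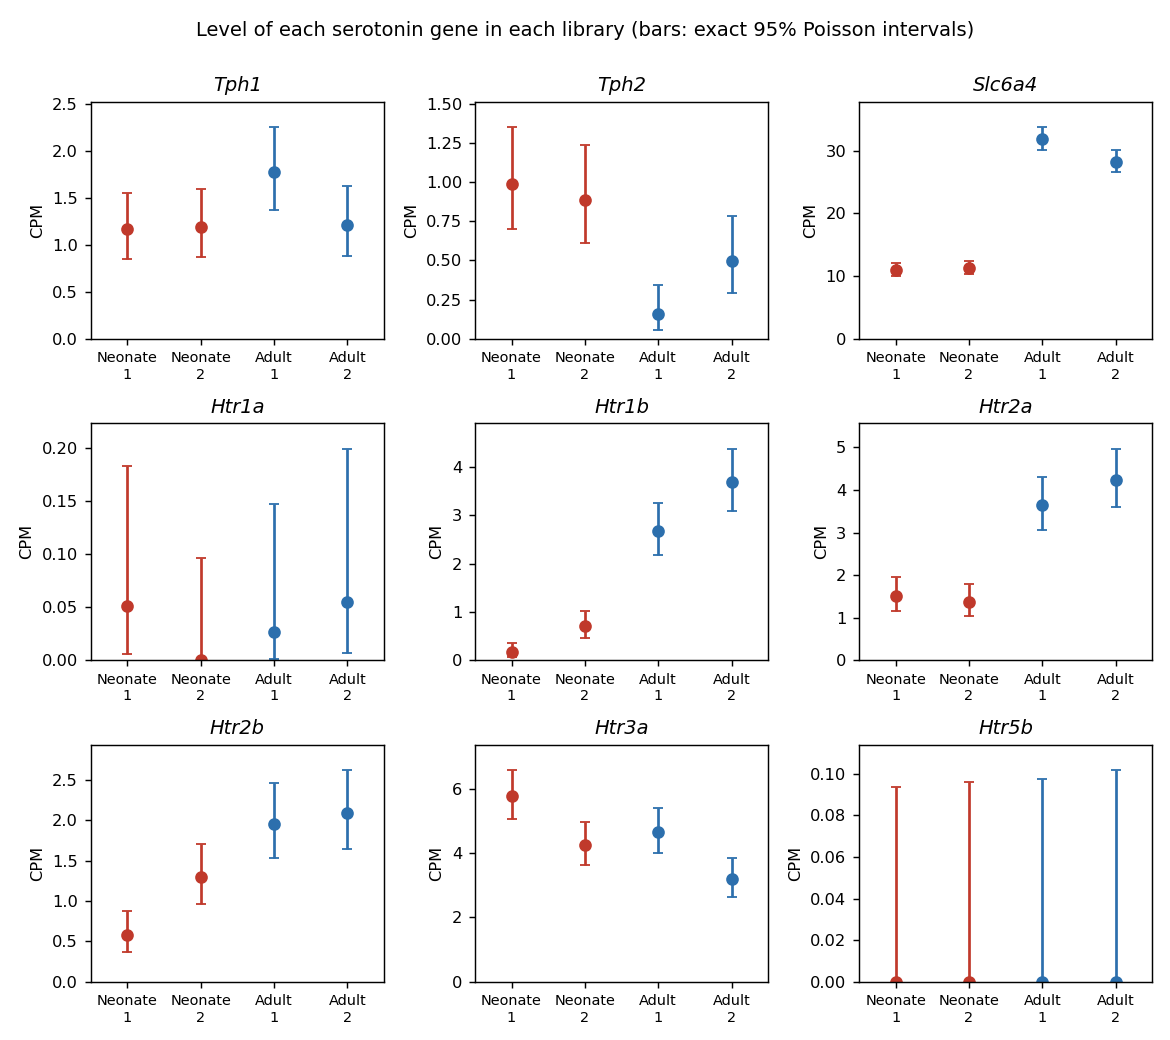
CPM of each of the 9 genes in neonatal (red) and adult (blue) libraries, on linear axes that start at 0 and differ between panels. Points are single libraries and bars are exact 95% Poisson intervals. Slc6a4 stood at 10.9 and 11.3 CPM in neonates and at 31.9 and 28.3 CPM in adults, with intervals far apart.

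Slc6a4 (ENSRNOG00000003476), which clears serotonin from the extracellular space, had 432 and 436 counts in the neonatal libraries and 1205 and 1026 in the adult libraries. These are 10.9 and 11.3 CPM against 31.9 and 28.3 CPM. Both adult libraries lay above both neonatal ones, with a gap much larger than the spread within an age. The mean level was 11.1 ± 0.268 CPM (SD, n = 2) in neonates and 30.1 ± 2.56 CPM (SD, n = 2) in adults. The log2 fold change was -1.19 (SE 0.12, 95% interval -1.46 to -0.92, adjusted p = 4.9e-05 in edgeR), or 2.28-fold higher in adults.

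Within a library, Slc6a4 was also set against other genes, which removes the choice of scaling. Per 1000 counts of the summed glomus cell markers there were 1.67 and 2.08 Slc6a4 counts in neonates and 4.38 and 4.68 in adults, or 2.19 and 2.41 against 4.96 and 5.32 with Chga left out of the sum. Relative to Slc18a2, the vesicular monoamine transporter, the count ratio was 0.182 and 0.194 in neonates and 0.376 and 0.416 in adults. Relative to Slc6a2, the noradrenaline transporter of sympathetic neurons, it was 0.0688 and 0.103 in neonates and 0.598 and 0.581 in adults, but Slc6a2 was itself called 3.13-fold higher in neonates, so this ratio moved through both genes. In each of these ratios the ages were apart.

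Platelets, mast cells and nerve fibres can also carry Slc6a4. For nerve fibres only a list of sympathetic neuron markers was used. The summed levels of the marker lists of these cells were lower in adults, for platelets through Pf4. The part of these cells in the Slc6a4 level was not tested. The 7 platelet markers summed to 6.51 and 7.11 CPM in neonates and to 4.04 and 3.96 CPM in adults. Of the 2 tested, 1 was called higher in neonates, beside 7.68% of all genes tested. Ppbp had at most 1 count in any library. The called gene was Pf4, and the sums without it, a choice made after seeing the data, were 2.64 and 2.36 CPM against 2.21 and 2.27 CPM. The other tested gene, Itga2b, had a log2 fold change of 0.096 (adjusted p = 0.83 in edgeR). The 8 mast cell markers summed to 81.5 and 88.3 CPM in neonates and to 38.0 and 30.8 CPM in adults. Of the 7 tested, 5 were called higher in neonates, beside 7.68% of all genes tested. Cma1 and Cpa3, both called, gave most of the neonatal sum. The 2 tested but not called, Kit and Ms4a2, had log2 fold changes of 0.12 and 0.0099 (adjusted p = 0.60 and 0.98 in edgeR). The 9 markers of sympathetic neurons summed to 2228 and 2034 CPM in neonates and to 1886 and 1598 CPM in adults. Some of them, such as Snap25 and Chrna3, glomus cells also express. Of the 9, 5 were called higher in neonates, beside 7.68% of all genes tested. On adjusted p alone, 7 passed with neonates above, beside 31.2%. Snap25 and Chrna3 did not pass, with log2 fold changes of -0.11 and 0.096 (adjusted p = 0.33 and 0.57 in edgeR). The glomus cell list overlapped between ages, at 6558 and 5437 CPM against 7275 and 6039 CPM. Chga, a granule protein also found in other endocrine cells, was at 1552 CPM in neonate replicate 1, the library with the parathyroid markers, and at 740 CPM in neonate replicate 2. Without Chga, again chosen after seeing the data, the sums were 5006 and 4697 CPM against 6427 and 5316 CPM. Both adult libraries were above on library size, but TMM factors, which were higher in adults, were not applied to these sums. After TMM scaling, 5 of the 11 glomus cell markers passed on adjusted p in edgeR with neonates above, beside 31.2% of all genes tested. With adults above 3 passed, beside 31.1%. Chga was among the 5.

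**Figure D2:**
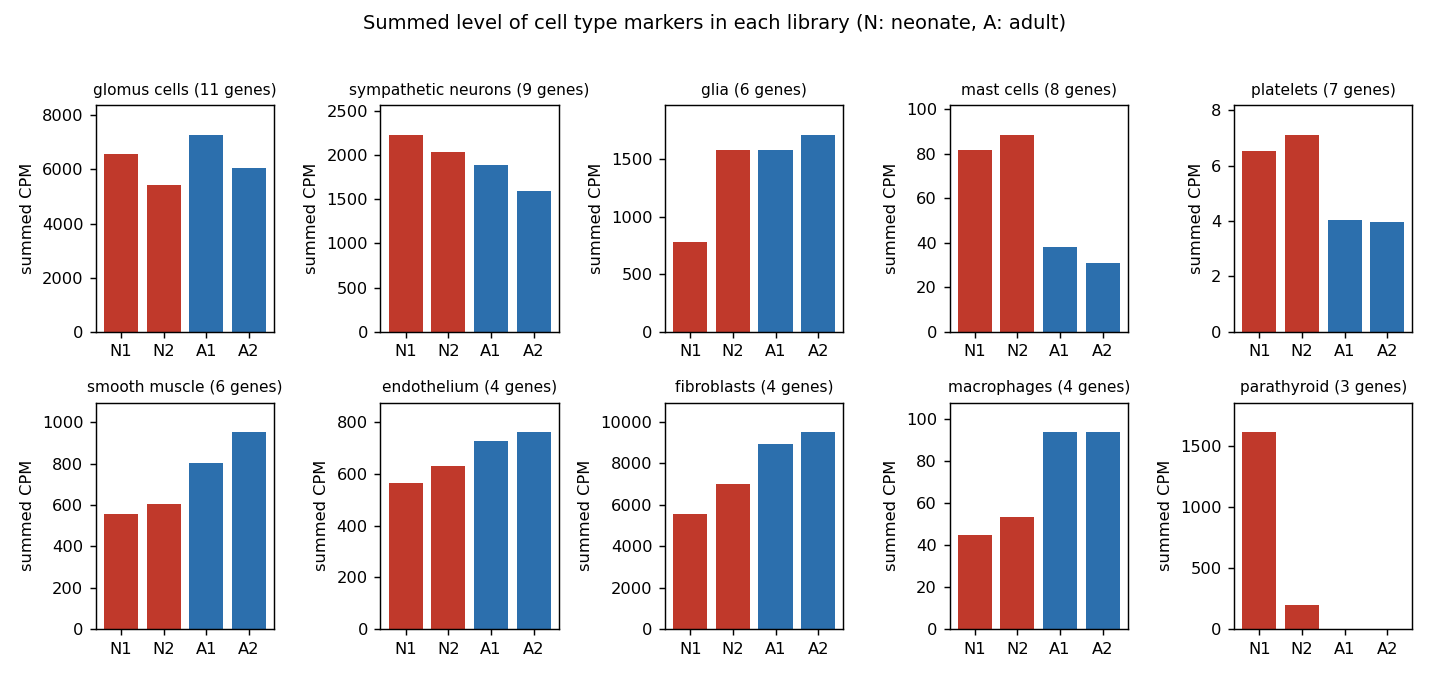
Summed CPM of the marker genes of 10 cell types in neonatal (N1, N2, red) and adult (A1, A2, blue) libraries, on linear axes that start at 0. CPM are on library size, without TMM factors. Summed mast cell markers were lower in adults, as were platelet markers through Pf4, smooth muscle, fibroblast and macrophage markers were higher, and glomus cell and glial markers overlapped between ages.

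Tph1 (ENSRNOG00000011672) had 1.17 and 1.19 CPM in neonates and 1.77 and 1.21 CPM in adults, from 44 to 67 counts per library. The adult libraries lay above the neonatal ones only slightly on library size, and the ages overlapped once TMM factors were applied. Its log2 fold change was -0.097 (SE 0.38, adjusted p = 0.84 in edgeR), and the 95% interval, from -0.96 to 0.77, left room for a change of close to 2-fold toward adults.

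Tph2 (ENSRNOG00000003880) had 39 and 34 counts in neonates and 6 and 18 in adults, or 0.988 and 0.883 CPM against 0.159 and 0.496 CPM. Both neonatal libraries lay above both adult ones, but the counting intervals of neonate replicate 2 (0.611 to 1.23 CPM) and adult replicate 2 (0.294 to 0.784 CPM) overlapped. The gene missed the 1 CPM filter. With no filter its log2 fold change was 1.73 (SE 0.68), and its adjusted p of 0.067 in edgeR did not pass. Set against Tph1 in the same library, Tph2 counts stood at a ratio of 0.848 and 0.739 in neonates and of 0.0896 and 0.409 in adults. The ratio is one of counts and not of transcripts, since length was not corrected for.

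The sequences upstream of the start sites of these isozymes are shown because their count ratio lay apart between ages, a difference not tested. Of the 9 genes, 5 had a promoter in the RefSeq table for GRCr8, a later assembly than the one used for the counts, and Slc6a4, Htr1a, Htr2a and Htr3a had no entry. The 250 bases before the start site were searched on both strands for 6 motifs, which were the CRE half-site TGACG, the CCAAT box CCAAT, the GC box GGGCGG, the TATA box TATAAA, the hypoxia response element core ACGTG and the GATA site AGATAA. The CRE half-site and the hypoxia response element core can share bases, but no matches overlapped in the sequences printed. The windows lie at chr1:106314629-106314878 for Tph1 and chr7:52675640-52675889 for Tph2, both on the minus strand. Capitals mark the motif matches.
Tph1: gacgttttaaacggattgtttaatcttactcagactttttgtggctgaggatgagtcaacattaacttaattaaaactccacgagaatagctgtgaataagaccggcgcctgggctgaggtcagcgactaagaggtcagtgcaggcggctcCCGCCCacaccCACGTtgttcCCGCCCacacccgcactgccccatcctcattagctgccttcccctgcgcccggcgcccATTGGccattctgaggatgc
Tph2: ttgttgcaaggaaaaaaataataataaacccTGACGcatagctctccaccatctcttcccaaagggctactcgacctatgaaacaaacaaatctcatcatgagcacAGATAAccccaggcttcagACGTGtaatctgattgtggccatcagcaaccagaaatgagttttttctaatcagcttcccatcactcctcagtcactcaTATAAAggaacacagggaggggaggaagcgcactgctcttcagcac
The Tph1 window held GC boxes, a CCAAT box and a hypoxia response element core, with 54.4% G and C. The Tph2 window held a TATA box, a CRE half-site, a hypoxia response element core and a GATA site, with 44.8% G and C. Of the 33469 promoter windows of this length, 12.9% held TATAAA, 30.5% GGGCGG, 34.0% CCAAT, 18.2% TGACG, 16.6% ACGTG and 10.3% AGATAA, so each match is common. These matches describe the letters and not sites of binding.

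Htr1b (ENSRNOG00000013042), a receptor that couples to inhibitory G proteins and is known on nerve endings and on smooth muscle of vessels, had 7 and 27 counts in neonates and 101 and 134 in adults. These are 0.177 and 0.701 CPM against 2.67 and 3.69 CPM. Every adult library exceeded every neonatal one, and the neonatal libraries themselves differed beyond counting error, with intervals of 0.0713 to 0.365 CPM and 0.462 to 1.02 CPM. The log2 fold change was -2.61 (SE 0.54, 95% interval -3.84 to -1.39, adjusted p = 0.0027 in edgeR), or 6.13-fold higher in adults. The size depended on the neonatal library kept, with -1.95 without neonate replicate 1 and -3.85 without neonate replicate 2, and it remained past the threshold in both. The Htr1b promoter is shown because this gene had the largest change of the 9. Its window lies at chr8:91414816-91415065 of GRCr8 on the minus strand and held CCAAT on the minus strand at both marked places and none of the other 5 motifs.
Htr1b: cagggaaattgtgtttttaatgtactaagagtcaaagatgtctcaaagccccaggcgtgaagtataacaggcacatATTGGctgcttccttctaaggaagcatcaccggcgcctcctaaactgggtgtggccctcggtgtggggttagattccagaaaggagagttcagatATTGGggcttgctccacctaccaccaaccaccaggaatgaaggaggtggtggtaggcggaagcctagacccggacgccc

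Htr2a (ENSRNOG00000010063), a Gq-coupled receptor that contracts smooth muscle and excites neurons, had 60 and 53 counts in neonates and 138 and 154 in adults. Its levels were 1.52 and 1.38 CPM against 3.65 and 4.24 CPM, without overlap. The log2 fold change was -1.20 (SE 0.31, 95% interval -1.89 to -0.50, adjusted p = 0.0080 in edgeR), or 2.29-fold higher in adults. Without adult replicate 2 the adjusted p was 0.057 in edgeR, at a log2 fold change of -1.12.

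Htr2b (ENSRNOG00000017625), the other Gq-coupled receptor of the set and known from fibroblasts and heart valves, had 0.583 and 1.30 CPM in neonates and 1.96 and 2.09 CPM in adults. The ages did not overlap, but the neonatal libraries were more than 2-fold apart. Its log2 fold change of -0.87 (SE 0.43, adjusted p = 0.11 in edgeR) did not pass. It was -1.50 (adjusted p = 0.011) without neonate replicate 2 and -0.41 (adjusted p = 0.36) without neonate replicate 1 in the same edgeR test. Neonate replicate 1 was thus the lower library for both Htr1b and Htr2b, and there the fibroblast markers summed to 5577 CPM against 7023 CPM in neonate replicate 2, the glial markers to 780 CPM against 1583 CPM, and the parathyroid markers were high. The part of these differences in the receptor levels was not tested.

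Several of the cell types in which these receptors are known had higher summed marker levels in adults on library size. The 6 smooth muscle markers summed to 555 and 604 CPM in neonates and to 803 and 952 CPM in adults, with 2 called higher in adults. The 4 fibroblast markers with values summed to 5577 and 7023 CPM against 8936 and 9510 CPM, with Dcn called. The 4 macrophage markers summed to 44.9 and 53.2 CPM against 93.6 and 93.5 CPM, with 2 called. Beside these counts, 13.2% of all genes tested were called higher in adults. Summed over each list, the adult level was 1.51 times the neonatal one for smooth muscle, 1.46 times for fibroblasts and 1.91 times for macrophages. TMM factors, higher in adults, were not applied and would narrow these gaps. In edgeR, 4 smooth muscle, 3 fibroblast and 3 macrophage markers passed on adjusted p alone with adults above, beside 31.1% of all genes tested. Acta2, Col1a1 and Cd68 did not pass, with log2 fold changes of -0.035, -0.13 and 0.32 (adjusted p = 0.74, 0.38 and 0.24 in edgeR). Col1a1 gave most of the fibroblast sum in every library, with 5890 CPM in neonate replicate 2 and 6917 CPM in adult replicate 2. The 4 endothelial markers with values summed to 564 and 632 CPM against 728 and 761 CPM, with none called, and the 6 glial markers overlapped, at 780 and 1583 CPM against 1579 and 1712 CPM. Their part in the levels of Htr1b, Htr2a and Htr2b was not tested.

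Htr3a (ENSRNOG00000006595), the subunit that can form the serotonin-gated cation channel by itself and is known from sensory and autonomic neurons, had 5.78 and 4.26 CPM in neonates and 4.66 and 3.20 CPM in adults. The ages overlapped on library size and were apart, with neonates above, after TMM scaling. The log2 fold change was 0.60 (SE 0.30, 95% interval -0.073 to 1.27, adjusted p = 0.11 in edgeR) and did not pass. It passed without neonate replicate 2, at 0.84 (adjusted p = 0.025 in the same edgeR test). Htr3b, whose product joins Htr3a in mixed channels, stayed under 1 CPM with 7 and 12 counts in neonates and 21 and 34 in adults. Per Htr3a count there were 0.0307 and 0.0732 Htr3b counts in neonates and 0.119 and 0.293 in adults. The ages were apart in this ratio, which was not tested. Htr3b itself did not pass in the fit with no filter (log2 fold change -1.38, SE 0.73, adjusted p = 0.16 in edgeR). The chaperones that help nicotinic and related channels fold were measured as well. Ric3 was at 21.2 and 24.7 CPM in neonates and at 66.2 and 59.8 CPM in adults, called higher in adults at a log2 fold change of -1.21 (SE 0.105, adjusted p = 2.38e-05 in edgeR). Tmem35a, named for its value, had -0.94 (adjusted p = 0.00215 in edgeR), short of 2-fold.

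Htr1a (ENSRNOG00000010254), an inhibitory receptor of the brain and autonomic neurons, had 2 and 0 counts in neonates and 1 and 2 in adults, all under the floor. Htr5b (ENSRNOG00000002549) had 0 counts in all 4 libraries, under the floor of 0.0760 to 0.0827 CPM, and the exact 95% Poisson intervals reached up to between 0.0934 and 0.102 CPM. No difference could be detected at this depth for either gene.

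The rest of the pathway was read from a list of 56 genes in 11 roles, of which 55 had values and 39 were tested. By edgeR's quasi-likelihood test, 7 were called higher in adults and 2 higher in neonates, beside 13.2% and 7.68% of all genes. At an adjusted p under 0.05 without a minimum fold, 16 were higher in adults and 10 in neonates, beside 31.1% and 31.2% of all genes. The median log2 fold change of the tested genes of the list was -0.12.

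No gene of the steps that make and store serotonin was called. Ddc, which decarboxylates the hydroxylated amino acid in serotonin and dopamine synthesis alike, had 1446 and 1352 CPM in neonates and 1546 and 1380 CPM in adults (log2 fold change 0.18, adjusted p = 0.17 in edgeR). Of the 8 genes of this step and of the tetrahydrobiopterin cofactor, 5 passed on adjusted p alone with neonates above, beside 31.2% of all genes tested. Among them were Gch1, Pts, Spr and Pcbd1, named because they passed, with log2 fold changes from 0.52 to 0.64. Slc18a1, the vesicular monoamine transporter of endocrine cells, had a log2 fold change of 0.30 (adjusted p = 0.040 in edgeR), and Slc3a2, the shared chain of amino acid carriers, one of 0.0012. Of the other 3 genes of tryptophan entry, named for their values, Slc16a10 was at -0.999 (adjusted p = 0.00394 in edgeR) and Slc7a8 at -0.37, both higher in adults, and Slc7a5 at 0.51, higher in neonates, all short of 2-fold.

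Clearance by other routes differed by gene. Slc22a3, a low-affinity carrier of monoamines, had 13 and 8 counts in neonates and 112 and 178 in adults. Among the genes of the list past the filter this was the largest difference, at -3.61 on the log2 scale (SE 0.46, adjusted p = 0.000168 in edgeR), and like Htr1b the gene passed the filter through the adult libraries alone. Slc29a4, another low-affinity carrier, overlapped between ages at 79.3 and 65.1 CPM against 92.0 and 65.1 CPM. Maoa, the monoamine oxidase that prefers serotonin, had 67.0 CPM in both neonatal libraries and 78.0 and 80.7 CPM in adults, with a log2 fold change of 0.0022 after TMM scaling. Maob and Aldh2, named for their values, were higher in adults at -0.51 and -0.68 (adjusted p = 0.00517 and 0.000361 in edgeR) but short of 2-fold. Tgm2, which can attach serotonin to proteins, was at -0.74 (adjusted p = 6.3e-05 in edgeR). Tdo2, which draws tryptophan into the kynurenine route and is named for its values, had 0 counts in both neonatal libraries and 25 and 22 in adults. Its mean adult CPM was 8.24 times the mean floor of the neonatal libraries, a ratio that leaves out counting error. Tdo2 was under the 1 CPM filter, and in the fit with no filter it passed with adults above (adjusted p = 0.00499 in edgeR). Ido1 had no counts.

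The 8 receptor genes outside the set of 9 all stayed under 1 CPM in every library, and none was tested. Htr1f, Htr4, Htr5a and Htr7 had at most 3 counts in any library. Downstream of the receptors, 4 of the 7 Gq genes were higher in adults on adjusted p alone, beside 31.1% of all genes tested, and none was higher in neonates, beside 31.2%. Whether the list differs from other genes was not tested. Gnaq, the alpha subunit through which Htr2a and Htr2b act, had 6.94 and 8.36 CPM in neonates and 24.6 and 29.1 CPM in adults, or -1.57 on the log2 scale (SE 0.14, adjusted p = 3.26e-05 in edgeR). Gna11 was at -1.08 and Plcb4, a phospholipase of this route, at -0.73. Of the 5 inhibitory alpha subunits, through which Htr1b acts, Gnai1 was called at -1.19, while Gnai2 was at -0.14 (adjusted p = 0.17 in edgeR). S100a10, which binds Htr1b at the cell surface, went the other way, with 183 and 215 CPM in neonates and 108 and 115 CPM in adults (log2 fold change 1.08, or 0.84 and short of 2-fold on library size alone). These proteins serve many other receptors.

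Transcription factors known from serotonergic neurons were low or moderate. Fev had 1.70 and 2.05 CPM in neonates and 7.25 and 4.38 CPM in adults, or -1.39 on the log2 scale (SE 0.32, adjusted p = 0.0051 in edgeR). It lost the threshold without adult replicate 1, with an adjusted p of 0.072 in edgeR. Gata3 was higher in neonates at 1.51, with 11.5 CPM in neonate replicate 1, the library with the parathyroid markers, and 5.35 CPM in neonate replicate 2, and at 0.83 without neonate replicate 1. Gata2 was at 0.54. Gata2 and Gata3 also serve glomus cells or other tissues, and Gata3, Ddc and Slc18a1 stand in the glomus cell list as well.

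**Figure D3:**
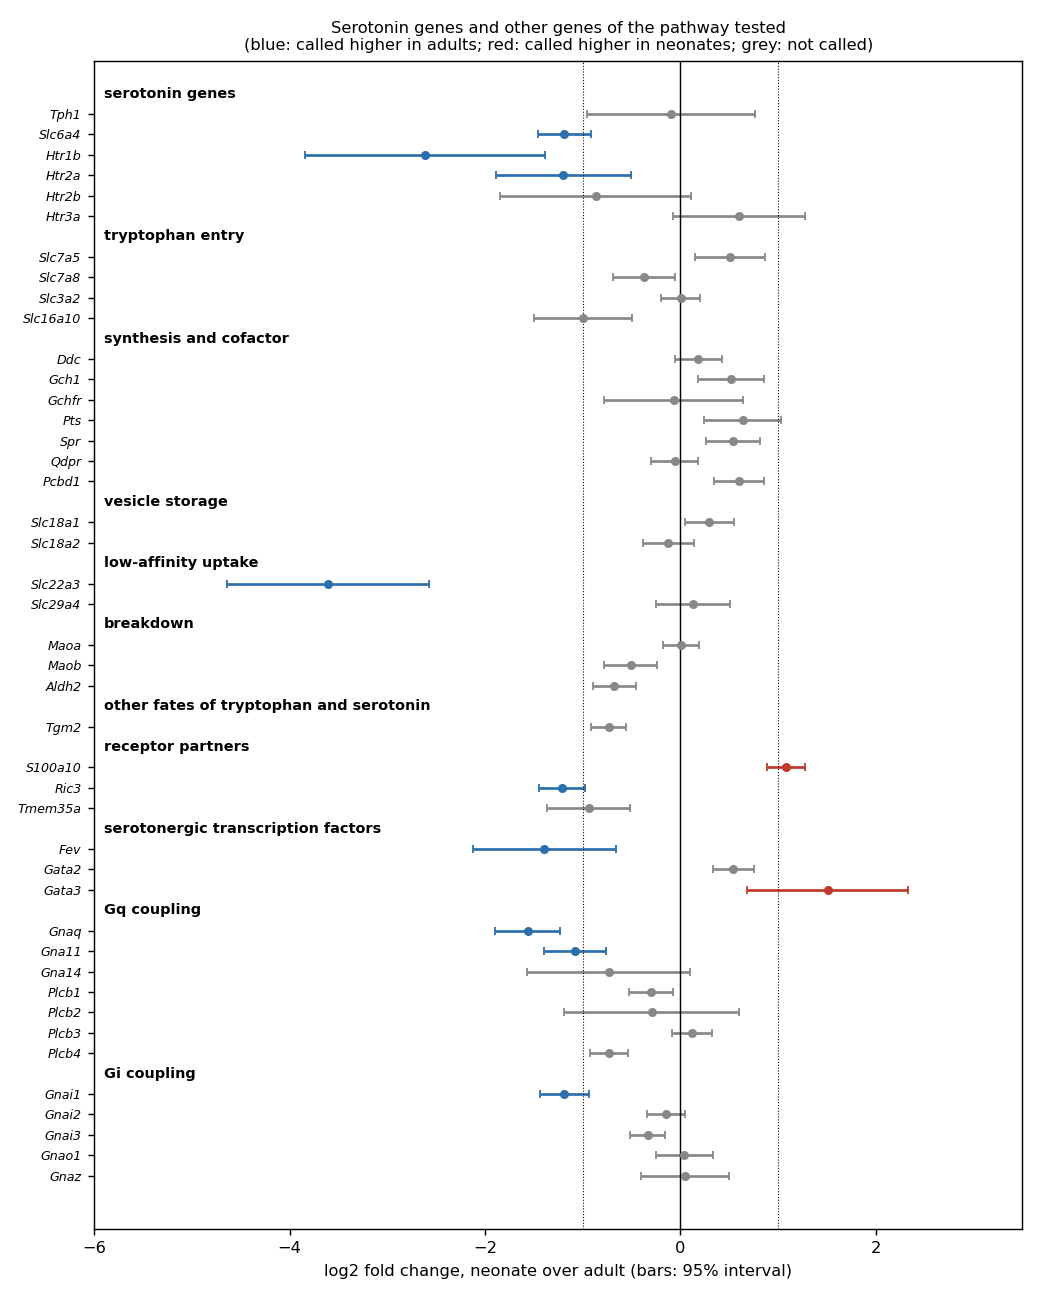
Log2 fold change, neonate over adult, of the 6 tested serotonin genes and of tested genes of the pathway list, by role. Bars are 95% intervals of edgeR's fit, dotted lines mark 2-fold, blue marks genes called higher in adults and red genes called higher in neonates. Slc6a4, Htr1b and Htr2a lay to the left, as did Slc22a3 and Gnaq.

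For each gene called, the 3 tested genes closest in pattern were taken by the distance of log2 CPM, centred on each gene's mean, over the 4 libraries and 13842 other genes. Next to Slc6a4 were Glb1l2, Chodl and Sort1, at distances of 0.0323, 0.0374 and 0.0396. Next to Htr2a were Atf2, Pfkfb3 and Arnt, at 0.0214, 0.0346 and 0.0477. Htr1b had more distant neighbours, LOC100910838, Gpr63 and Duoxa2, at 0.276, 0.351 and 0.395. With 4 libraries in 2 groups such closeness mostly reflects a like difference between ages.

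**Figure D4:**
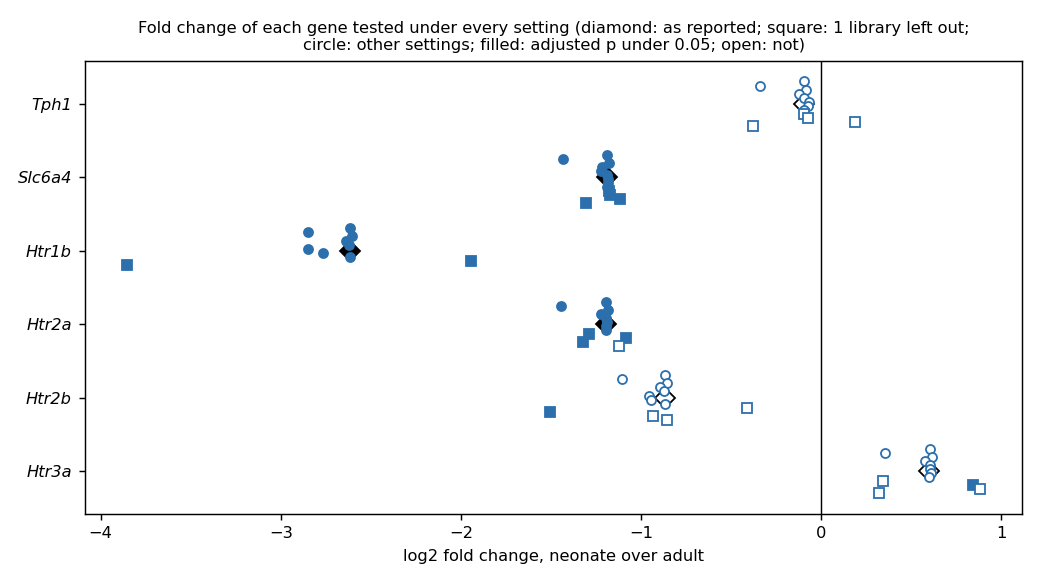
Log2 fold change of the 6 tested genes as reported (diamonds), with 1 library left out (squares) and under the other settings (circles). Filled symbols have an adjusted p under 0.05. Slc6a4 ranged from -1.43 to -1.12 and Htr1b from -3.85 to -1.95, while Htr2b, from -1.50 to -0.41, depended on the neonatal library kept.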

How the data were processed

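RNA of whole CBs was sequenced (poly A+ selection, paired-end), 2 libraries per age. The authors trimmed the reads, ran STAR and Salmon (1.5.2 per the submitters' processing notes) on Rnor_6.0, and deposited gene-level estimated counts, neither normalized nor filtered. None of the 9 genes had fractional counts.

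Estimated counts were rounded. Of 32883 genes, 636 annotated by symbol in RefSeq as other than protein-coding were removed, and a gene needed 1 CPM or more in 2 or more libraries. Ages were compared in R 4.3.3 with edgeR 4.0.16 (TMM, quasi-likelihood test, no covariate), and Benjamini-Hochberg adjustment ran over all genes tested. The standard error is the log2 fold change divided by the square root of F. CPM used the deposited totals. Python used pandas 2.3.3, numpy 2.4.6 and scipy 1.17.1. The procedure was tested on simulated data.

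Alternatives were DESeq2 1.42.0, limma-voom (limma 3.58.1), RLE factors, library size alone, TMM factors computed with neither ribosomal protein genes nor mitochondrially encoded ones, no filter or a stricter one, all genes kept, no minimum fold, a replicate block and each library left out.

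The genes and lists were chosen with earlier results of these data known, and support nothing by themselves. Named were the 9 genes, the pathway genes called, the pathway gene of highest mean CPM in each role and the nearest genes in pattern. Others are said to be named for their values. Insm1, Pecam1 and Col1a2, on the lists, were not analysed here, and some genes of the lists are counted but not reported here by name. P-values set the difference between ages against the spread between these pooled libraries, estimated in edgeR with information shared across genes.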

Additional observations from a re-analysis of the deposited data

How the results depend on the processing

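Slc6a4 and Htr1b stayed past the threshold, higher in adults, under every alternative that gave a value, and Htr1b, like Slc22a3, missed the 1 CPM filter without either adult library and the filter of a mean of at least 5 CPM. Of the 71 log2 fold changes under alternatives, 67 kept their direction and side of the threshold. In edgeR, leaving out each library in turn gave -0.38 to 0.19 for Tph1, with the change of sign at 0.19 without adult replicate 1 (adjusted p = 0.80), -1.32 to -1.09 for Htr2a, -1.50 to -0.41 for Htr2b and 0.32 to 0.88 for Htr3a. Of the 9 serotonin genes, 1 (without adult replicate 2) to 4 (without neonate replicate 2) were then called higher in adults, where the count without either adult library lacks Htr1b by the filter. Pathway genes called higher in adults ran from 4 (without adult replicate 1) to 8, and those higher in neonates from 1 (without neonate replicate 1) to 2. In edgeR, Htr2a had an adjusted p of 0.057 without adult replicate 2, and without neonate replicate 2 Htr2b and Htr3a passed at 0.0105 and 0.0249. A mean of at least 5 CPM left 1 of the 9 serotonin genes tested, and that 1 called, by its construction. It left 1168 genes called higher in adults and 656 in neonates, of all genes. With no minimum fold change, 16 and 10 pathway genes were higher in adults and in neonates, and 4300 and 4325 of all genes. On library size alone, 1 pathway gene and 705 of all genes were called higher in neonates, against 2 and 1063. Same-numbered libraries did not deviate together across genes (Pearson's r -0.015 over 13843 genes). This single correlation over 2 libraries per age cannot decide whether they share litters. With a replicate block the log2 fold changes were -1.19 for Slc6a4, -2.77 for Htr1b and -1.20 for Htr2a, all past the threshold, and no call among the 9 genes changed. Depth limited Htr1a and Htr5b, whose counts were under the floor, and most other receptors.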
